A study of Mus musculus with 6 samples.

Results

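The nicotinic acetylcholine receptor of muscle and the genes that gather it at the synapse were followed in cultured mouse satellite cells, the stem cells that rebuild skeletal muscle after injury. The set holds 10 genes of the 55536 in the count tables, chosen by name. These are the receptor subunit genes Chrna1, Chrnb1, Chrnd, Chrng and Chrne, and the genes Agrn, Lrp4, Musk, Dok7 and Rapsn of the pathway that clusters the receptor. RNA was sequenced from 3 control and 3 cKO samples, and the comparison addresses what loss of Hira, a chaperone of the histone variant H3.3, does to RNA levels in these cells. Control mice carried Pax7CreErt2;Hira fl/+ and cKO mice carried Pax7CreErt2;Hira fl/fl on C57BL/6J. Pax7CreErt2 is a tamoxifen-dependent Cre made under the Pax7 gene and so in satellite cells, and mice of both genotypes received tamoxifen in the diet. The labels call the controls WT, but by the study's methods they also carry the Cre and 1 floxed Hira allele. The mice were adult males whose Tibialis anterior had been injured with barium chloride. Satellite cells were sorted 5 days after injury as CD34+ ITGA7+ CD45- TER119- SCA1- cells and grown for 48 h at low density in high-serum medium. The sources call the samples independent without saying whether each came from a separate mouse, so p-values measure only the spread between these samples, which may be technical.

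The muscle acetylcholine receptor is a cation channel of 5 subunits that opens when a motor neuron releases acetylcholine. Fetal and denervated muscle builds it from α, β, δ and γ subunits, and in innervated adult muscle the ε subunit takes the place of γ. Agrin from the nerve binds LRP4 on the muscle surface, LRP4 activates the receptor tyrosine kinase MuSK, DOK7 binds MuSK inside the cell and stimulates it, and rapsyn then anchors receptors in dense clusters. Myogenic bHLH factors such as MyoD and myogenin bind E-boxes, written CANNTG, and are known to drive the receptor subunit genes as myoblasts differentiate. The ETS factor GABP binds the N-box, CCGGAA, through which synaptic nuclei raise transcription of the adult subunit gene.

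Promoter sequence is shown for the 5 members whose 250 bases before the start hold the N-box or 1 of 2 forms of the E-box that myogenic factors favour, CAGCTG and its variant form CAGGTG. RefSeq windows on GRCm38, the build called mm10, were at hand for 7 of the 10 members, 9 windows in all since Agrn and Dok7 have more than 1 start. The lines run 5′ to 3′ on the strand of the gene, with these 3 motifs in capitals. All were searched on both strands. The first E-box form reads the same on either strand, the variant form reads CACCTG on the other strand, and the N-box reads TTCCGG there. Both E-box forms are also cases of CANNTG.
Chrng, chr1:87205651-87205790, + strand: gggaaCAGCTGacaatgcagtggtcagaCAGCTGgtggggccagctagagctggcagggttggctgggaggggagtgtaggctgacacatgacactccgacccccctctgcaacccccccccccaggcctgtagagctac
Chrna1, chr2:73580359-73580478, − strand: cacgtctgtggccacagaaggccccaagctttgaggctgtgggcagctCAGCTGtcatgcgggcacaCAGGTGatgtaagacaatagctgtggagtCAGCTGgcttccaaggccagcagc
Chrnb1, chr11:69795958-69796077, − strand: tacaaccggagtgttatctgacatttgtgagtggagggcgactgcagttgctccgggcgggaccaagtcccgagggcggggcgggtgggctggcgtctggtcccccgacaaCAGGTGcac
Musk, chr4:58285822-58285941, + strand: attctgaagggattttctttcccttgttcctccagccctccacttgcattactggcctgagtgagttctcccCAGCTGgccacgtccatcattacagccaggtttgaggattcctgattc
Chrne, chr11:70619225-70619354, − strand: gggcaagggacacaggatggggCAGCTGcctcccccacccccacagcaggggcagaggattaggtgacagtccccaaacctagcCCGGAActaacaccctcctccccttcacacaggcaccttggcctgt

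The fetal subunit gene Chrng held 2 CAGCTG E-boxes, whose first bases lay at positions -155 and -132 from the start. Chrna1 also held 2, at -92 and -44, with a CAGGTG between them at -73. At least 2 CAGCTG were present in 1.26% of the 32851 RefSeq promoter windows, and at least 1 in 13.0%. Musk held 1 CAGCTG at -68, and Chrnb1 held 1 CAGGTG at -29, a motif present in 17.2% of all windows. The adult subunit gene Chrne held a CAGCTG at -138 and a CCGGAA at -76. This N-box was found in 12.03% of all windows and in no other member with a window. The windows of Agrn and Dok7 held none of the 3 motifs. Of the 9 windows, 7 held at least 1 CANNTG, as did 66.2% of all windows. These matches describe the letters present and were not tested for binding. The start that RefSeq gives for Chrng lies inside the gene as GENCODE M21 draws it, so its window there is only 1 of the possible promoters.

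The 6 libraries held between 47944477 and 63323577 counts on genes, and replicates of a group differed from each other by more than sampling noise. Levels are given as CPM, counts scaled to 1e6 of the library size after TMM scaling, and as CPM per kb of exonic sequence where genes are compared with each other. For Hira itself, control samples held 375, 348 and 341 counts against 161, 293 and 272 in cKO, a log2 fold change of -0.43 (SE 0.12, adjusted p = 0.0237 by edgeR's quasi-likelihood test). Without control replicate 1 the adjusted p for Hira was 0.104. Without cKO replicate 1, which held the fewest Hira counts, its log2 fold change was -0.29 (adjusted p = 0.0459 by edgeR). The paper reports a sharp drop of Hira RNA by RT-qPCR and no HIRA protein detected in cKO satellite cells. That drop was larger than the fall in Hira counts here. Counts over the whole gene do not separate the floxed part, so Hira RNA is only a partial check of the deletion. Satellite cell markers summed to 3698 to 4356 CPM, mostly from Des, the intermediate filament gene desmin that myocytes also express, at means of 3228 CPM in control and 2903 CPM in cKO. Pax7, the defining factor of satellite cells, stood at 39.7 and 34.8 CPM, and the quiescence-associated markers Calcr and Chodl had at most 12 counts in a sample. Myocyte markers were abundant, at 30894 to 40058 CPM. Of the 22404 genes tested, 2101 were upregulated and 1448 were downregulated in cKO. With libraries scaled by total counts only, these numbers were 2462 and 1057.

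RNA of the fetal subunit gene was abundant and that of the adult subunit gene nearly absent. Chrng exceeded Chrne by 585-fold or more per exonic length in each of the 6 samples. In cKO, Musk, Chrna1, Rapsn and Chrnb1 were downregulated, with log2 fold changes of -0.25 to -0.11, while Chrnd, Chrng and Lrp4 differed by less than the spread between replicates. No member was upregulated. Of the 9 members with enough counts to test, 4 were called lower at an adjusted p under 0.05 (44.4%), beside 6.46% of all genes tested. Members are counted deeply, and small differences are called more often at high counts. Among the 4900 genes with a mean count of at least that of Agrn, the tested member with fewest counts, 15.8% were called lower and 10.1% higher. None of the 9 was called higher, where 9.38% of all genes were. At an unadjusted p under 0.05 in edgeR, 5 were lower and 0 higher, beside 2845 lower and 3331 higher of the 22404 genes tested. DESeq2 also called 4 lower and 0 higher, beside 1252 lower and 1603 higher of 39816 genes. The median log2 fold change of the 9 was -0.08, against -0.0011 over all genes tested and -0.02 over the 4900 deeply counted genes. The 3 cKO values lay under all 3 control values for 4 of the 9, and 0 of the 9 lay above them. Over all genes tested these shares were 15.0% and 16.8%, or 31.8% in either direction. In bulk RNA of this kind, fewer cells of a type and less RNA per cell cannot be told apart.

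**Figure D1:**
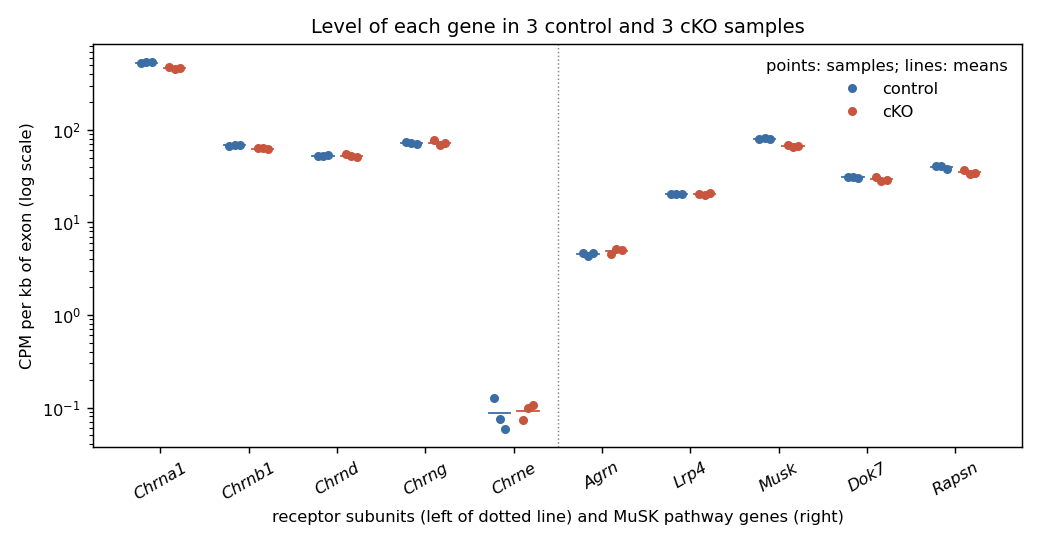
Level of each of the 10 genes in CPM per kb of exonic sequence (vertical axis, log scale), with points for the 3 control and 3 cKO samples and lines for their means. Chrna1 stands highest, at means of 534 in control and 471 in cKO, and Chrne lowest, at 0.087 and 0.093.

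Per kb of exon, the levels in control ran from Chrna1 through Musk, Chrng, Chrnb1, Chrnd, Rapsn, Dok7, Lrp4 and Agrn down to Chrne. With exonic length as the scale, no neighbours in this order overlapped among the control samples. Chrna1 stood far above the rest at 534 CPM per kb. By its mean over the samples of both groups it was the 31st highest of 14499 protein-coding genes tested. The next genes, Musk and Chrng, had 79.9 and 72.0 CPM per kb. In cKO the order was the same except at that pair. Chrng, at 69.07 to 77.8 CPM per kb, stood above Musk, at 65.4 to 69.11 CPM per kb, and their ranges overlapped. Agrn, the ligand gene, was the lowest tested member, at 4.57 CPM per kb in control and 4.89 in cKO. Parts of this order depend on the length used. With the longest coding transcript, Chrng stood at 1.78 to 1.91 times Chrnd over all samples and Musk at 1.25 to 1.54 times. Chrng was then above Musk in control too. Rapsn, at 0.65 to 0.78 times Chrnd, then overlapped Dok7, at 0.76 to 0.82 times.

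Chrna1 (ENSMUSG00000027107, chr2:73563215-73580338, − strand) encodes the α subunit, which carries most of the acetylcholine binding site and is present in both the fetal and the adult receptor. Its levels were 2326, 2349.9 and 2356 CPM in the control samples and 2119, 2018 and 2055 CPM in the cKO samples. All cKO samples lay below all control samples, by a margin wider than the spread within either group. Control averaged 2344 ± 15.7 CPM and cKO 2064 ± 51.3 CPM (SD, n = 3 each). The log2 fold change was -0.18 (SE 0.03, 95% interval -0.25 to -0.12, adjusted p = 0.000519 by edgeR's quasi-likelihood test), so that Chrna1 fell by 11.9%. Other genes contain 1.18% of the stretches of 75 bases in its transcript, and 0% of those of each other member.

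Chrnb1 (ENSMUSG00000041189, chr11:69784036-69795943, − strand) encodes the β subunit, also common to both receptors. It measured 168, 172 and 175 CPM in control and 161, 159.8 and 156 CPM in cKO. The groups did not overlap, but the lowest control sample stood only a little above the highest cKO sample. Its log2 fold change was -0.11 (SE 0.03, 95% interval -0.18 to -0.05, adjusted p = 0.0216 by edgeR), so that it fell by 7.38%. The call rested on several samples. It was lost without control replicate 2 (adjusted p = 0.0897), control replicate 3 (adjusted p = 0.116) or cKO replicate 3 (adjusted p = 0.0864), and with scaling by total counts only (adjusted p = 0.0739).

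Chrnd (ENSMUSG00000026251, chr1:87190607-87200070, + strand) encodes the δ subunit, the remaining partner shared by the fetal and adult forms. Its control samples had 173, 171 and 175 CPM and its cKO samples 180.2, 170.2 and 168 CPM. The groups overlapped, with the highest and the lowest sample both in cKO. Its log2 fold change was -0.0038 (SE 0.03, 95% interval -0.07 to 0.07, adjusted p = 0.963 by edgeR), an interval that leaves out a fall of the size seen in Chrna1.

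Chrng (ENSMUSG00000026253, chr1:87204657-87212694, + strand) encodes the γ subunit that marks the fetal receptor. It lies 4587 bp downstream of Chrnd on the same strand, and the pair are nearest tested coding neighbours of each other. Levels were 309, 297 and 293 CPM in control and 324, 288 and 299 CPM in cKO. The cKO samples spread across the whole control range and beyond it on both sides. Chrng had a log2 fold change of 0.02 (SE 0.04, 95% interval -0.07 to 0.10, adjusted p = 0.838 by edgeR).

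Chrne (ENSMUSG00000014609, chr11:70614883-70619216, − strand) encodes the ε subunit of the adult receptor. It was nearly absent from the libraries, with 12, 8 and 6 counts in control and 6, 10 and 10 counts in cKO. The 26 counts over the 3 samples of each group have an exact 95% Poisson interval of 17.0 to 38.1, which covers counting error only. It did not pass the filter on low counts, and without that filter its log2 fold change was 0.12 (adjusted p = 0.935 by edgeR). A difference in Chrne between genotypes was thus not detectable at this depth.

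The fetal and adult subunit genes were then compared within each sample. Per exonic length, Chrng exceeded Chrne 585-, 947- and 1206-fold in the control samples and 1056-, 701- and 680-fold in the cKO samples. The ranges overlapped, and the spread within a group came with Chrne counts of 12 or fewer in each library. The mean log2 ratio differed by -0.14 between cKO and control (two-sided exact permutation test, p = 0.9). From the summed counts the ratio was 840, with a counting interval of 573 to 1286, in control and 775, with an interval of 529 to 1186, in cKO. Bowtie2 does not split reads over introns, so short exons lose reads. With only positions that an unsplit read can cover taken as length, the ratio ran from 391 to 807 over the 6 samples, and with the longest coding transcript it ran from 838 to 1727.

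Chrnd is shared by both forms and well counted, so it gives a steadier scale for the other subunits. Chrng stood at 1.41, 1.37 and 1.32 times Chrnd per exonic length in control and at 1.42, 1.33 and 1.41 times in cKO, a log2 difference of 0.02 (exact permutation test, p = 0.5). The ranges overlapped in part, with the lowest ratio in control and the highest in cKO. Chrna1 stood at 10.1, 10.3 and 10.1 times Chrnd in control and at 8.82, 8.89 and 9.19 times in cKO, a log2 difference of -0.18. Chrnb1 stood at 1.26, 1.31 and 1.30 times Chrnd in control and at 1.16, 1.22 and 1.21 times in cKO, a log2 difference of -0.11. For Chrna1 and Chrnb1 every cKO ratio lay below every control ratio, and the exact permutation p was 0.1, the smallest that 3 against 3 samples can give. The same held for the ratios to Chrnd of Musk, Rapsn and Dok7, with log2 differences of -0.25, -0.19 and -0.08. Over the 8 ratios to Chrnd the Benjamini-Hochberg adjusted p of these 5 was 0.16. Lrp4 and Agrn did not separate by genotype on this scale, with log2 differences of 0.0053 and 0.10 (exact permutation p = 1 and 0.4). These ratios share Chrnd as denominator and so do not vary independently. Chrnd itself hardly differed by genotype, so the differences largely repeat the fold changes in CPM and are no separate evidence. In CPM, 31.8% of all genes tested did not overlap between groups in either direction, and Dok7 did overlap. Except for Chrng to Chrnd, the ratios to Chrnd were chosen after the data were seen.

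**Figure D2:**
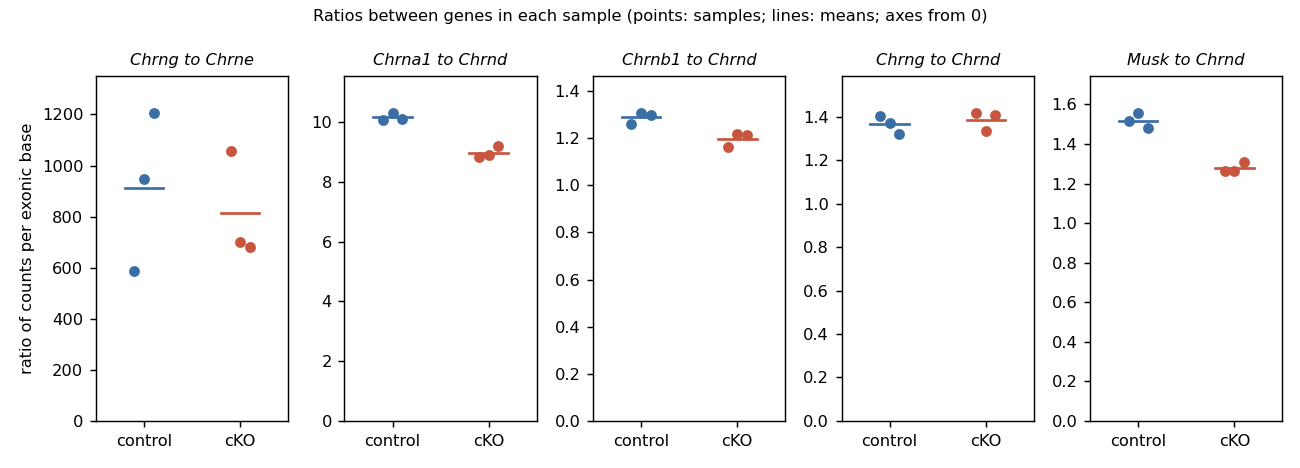
Ratio of counts per exonic base between 2 genes in each sample (points) with the mean of 3 samples (lines), for control and cKO, on axes that start at 0. The ratios of Chrna1, Chrnb1 and Musk to Chrnd lie lower in all cKO samples, and those of Chrng to Chrnd and to Chrne overlap between genotypes.

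Among the clustering genes, Musk (ENSMUSG00000057280, chr4:58285960-58374303, + strand) showed the largest difference of the 9 members tested. It encodes the muscle-specific kinase at the centre of the pathway. Its levels were 302, 306 and 298 CPM in control and 261, 247 and 252 CPM in cKO. The groups were well apart, with means of 302 ± 3.84 and 253 ± 7.19 CPM (SD, n = 3 each). The log2 fold change was -0.25 (SE 0.03, 95% interval -0.32 to -0.19, adjusted p = 3.6e-05 by edgeR's quasi-likelihood test), so that Musk fell by 16.1%. The nearest tested coding gene before Musk, Svep1, an extracellular matrix gene 79101 bp away, was upregulated (log2 fold change 0.66, adjusted p = 3.1e-07 by edgeR), and the nearest after it, Lpar1, was not called.

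Rapsn (ENSMUSG00000002104, chr2:91035620-91045729, + strand) encodes rapsyn, the scaffold that binds the receptor from inside. It had 73.7, 72.8 and 68.7 CPM in control and 65.8, 60.2 and 61.7 CPM in cKO. The groups did not overlap, at means of 71.7 ± 2.67 and 62.6 ± 2.90 CPM (SD, n = 3 each). Rapsn had a log2 fold change of -0.20 (SE 0.04, 95% interval -0.29 to -0.11, adjusted p = 0.00321 by edgeR) and fell by 12.8%. Its neighbour Psmc3, a proteasome subunit gene, was also downregulated (log2 fold change -0.16, adjusted p = 0.00242 by edgeR). On the opposite strand the predicted gene Gm13778 overlaps 4 exonic bases of Rapsn, and no other member shares exonic bases with another gene.

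Dok7 (ENSMUSG00000044716, chr5:35056766-35087839, + strand) encodes the cytoplasmic activator of MuSK. It had 133, 132 and 130.2 CPM in control, and 131, 121 and 121 CPM in cKO. In cKO, replicates 2 and 3 lay below the controls and replicate 1 lay among them. The log2 fold change was -0.08 (SE 0.04, 95% interval -0.16 to -0.01, adjusted p = 0.129 by edgeR), and without cKO replicate 1 it was -0.12 (adjusted p = 0.0084).

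Lrp4 (ENSMUSG00000027253, chr2:91457511-91513779, + strand) encodes the agrin receptor that activates MuSK. It stood at 215, 213 and 213 CPM in control and 214, 209.9 and 217 CPM in cKO. The control values fell inside the cKO range. This gave a log2 fold change of 0.0012 (SE 0.03, 95% interval -0.06 to 0.06, adjusted p = 0.987 by edgeR). Its sign turned under other size factors, so no direction was measured.

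Agrn (ENSMUSG00000041936, chr4:156165290-156197488, − strand) encodes agrin, which muscle makes as well as nerve. The control samples had 43.9, 40.3 and 43.1 CPM and the cKO samples 42.1, 47.5 and 46.5 CPM. Here too cKO replicate 1 lay among the controls and the other two cKO samples lay above them. The log2 fold change was 0.10 (SE 0.05, 95% interval -0.01 to 0.20, adjusted p = 0.208 by edgeR), and without cKO replicate 1 it was 0.15 (adjusted p = 0.0203). Gene counts do not separate the nerve and muscle splice forms of Agrn.

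**Figure D3:**
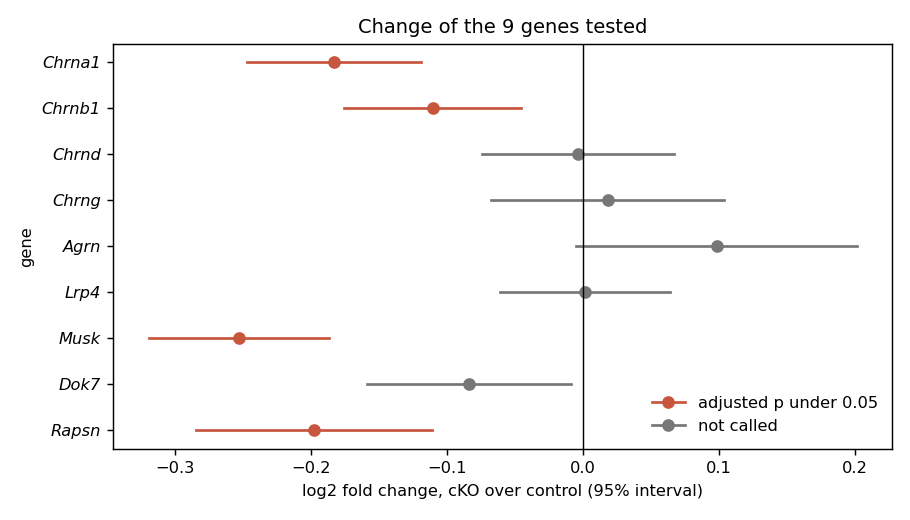
Log2 fold change of cKO over control (horizontal axis) for the 9 genes tested, as points with 95% intervals. The 4 coloured genes, Chrna1, Chrnb1, Musk and Rapsn, had an adjusted p under 0.05 and lie between -0.25 and -0.11, and the grey genes were not called.

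The genes around the members gave a background by position. Of 18 nearest tested coding neighbours that are not members, 1 was called higher and 2 lower, beside 9.38% and 6.46% of all genes tested. Besides Svep1 and Psmc3 this was Ckap5, a microtubule regulator beside Lrp4 (log2 fold change -0.15, adjusted p = 0.00195 by edgeR). Neither neighbour of Chrna1 was called, nor were those of Chrnb1, which lie 13 bp and 125 bp away.

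Other genes of the pathway and its regulators are given by list. In either direction, 15.8% of all genes tested were called, and 25.9% of the 4900 deeply counted genes. The myogenic factors, some of which bind E-boxes, were mostly lower in cKO. Of 10 tested, 9 were called lower and 0 higher, also in DESeq2, and the median log2 fold change was -0.17. None was higher at an unadjusted p under 0.05. Myf5 had a log2 fold change of -0.37, Mef2c of -0.31, and Mef2a and Myog of -0.20 each (all adjusted p under 0.05 by edgeR). Chrna1 and Rapsn stood beside them at -0.18 and -0.20. Whether the factors have a part in the members' difference was not tested.

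In the arm that raises subunit genes at synaptic nuclei, 7 of 8 genes were tested, of which 2 were called higher and 1 lower (42.9% called), with a median of -0.04. Etv4, an ETS factor, and Nrg1, which encodes neuregulin, had log2 fold changes of 0.41 and 0.36. Erbb3, a neuregulin receptor gene, had -0.21. Gabpa, which encodes the DNA-binding subunit of GABP, measured -0.04 (adjusted p = 0.490 by edgeR). Of 9 tested genes of the denervation and activity response, 4 were called lower and 1 higher (55.6% called), with a median of -0.13. The lower ones were Camk2b at -0.29, Ncam1 at -0.14, and Hdac5 and Runx1 at -0.13 each.

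Downstream of MuSK, 17 genes were tested, with 4 called lower and 1 higher and a median of -0.03 on the log2 scale. The share called, 29.4%, was near the 25.9% of deeply counted genes. Macf1, a cytoskeletal linker, had -0.30 (adjusted p = 1.4e-05 by edgeR). Apc, Pak1 and Abl2 had smaller falls of -0.13, -0.12 and -0.09. Phldb2, which encodes a membrane-cytoskeleton adaptor that binds CLASP, was higher at 0.17 (adjusted p = 0.00367 by edgeR). The small GTPase genes Rac1, Rhoa and Cdc42 were among the 12 not called.

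Of 16 genes for the synaptic basal lamina and postsynaptic scaffold, 6 were called lower and 4 higher (62.5% called), with a median of -0.03. The lower ones included the dystrophin-complex genes Sntb1 at -0.34 and Utrn at -0.17, and the muscle sodium channel gene Scn4a at -0.30. The higher ones were the laminin genes Lama4 at 1.07 and Lama5 at 0.30, the acetylcholinesterase gene Ache at 0.56 and the nidogen gene Nid2 at 0.17. Most of these higher genes encode matrix proteins that other cell types also make, and which cells their RNA came from was not tested. Colq, whose product anchors acetylcholinesterase in muscle, measured 0.01 and was not called.

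The neuronal-type nicotinic subunits were scarce. Of 11 listed, 4 had enough counts to test and 0 were called in either direction by edgeR or DESeq2, with 1 higher at an unadjusted p under 0.05. That was Chrnb2, at a log2 fold change of 0.38 (adjusted p = 0.127 by edgeR). Chrna6, Chrnb3 and Chrnb4 had 0 counts in every sample. The counts of Chrna7 were 72, 63 and 62 for control and 54, 80 and 57 for cKO. The summed level of the 11 was 2.47 to 2.69 CPM in control and 2.52 to 3.58 CPM in cKO, beside 2977 to 2999.6 CPM for the 5 muscle subunits in control.

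**Figure D4:**
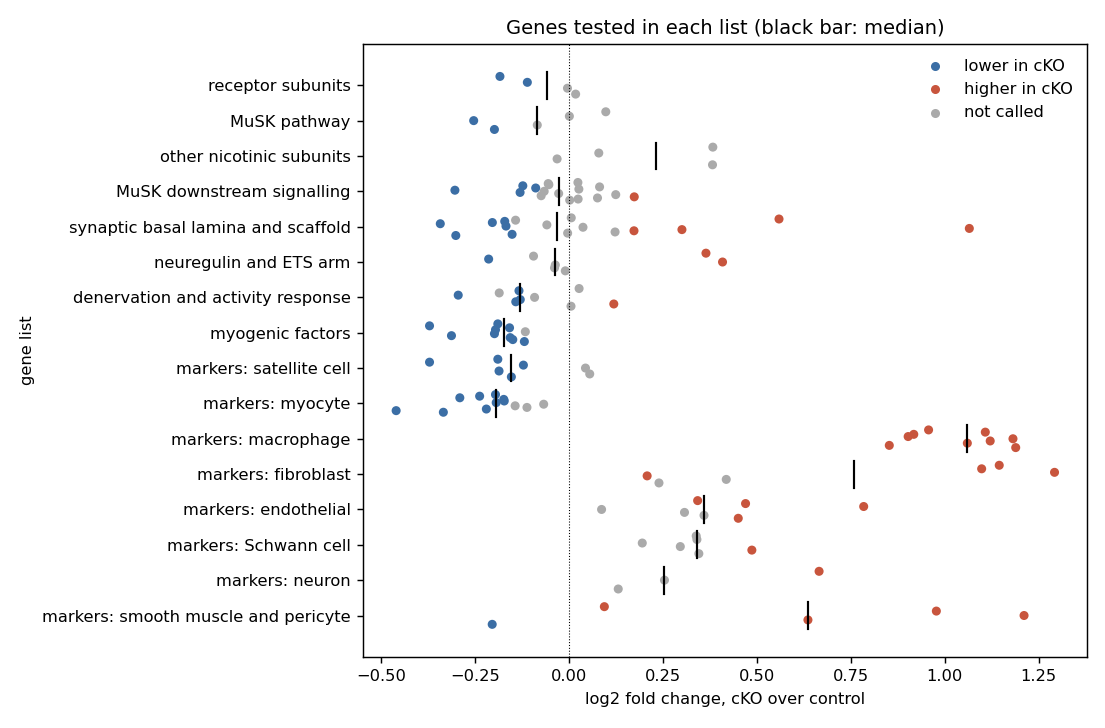
Log2 fold change of cKO over control (horizontal axis) for each gene tested in each list, with a black bar at the list's median. Called genes are blue where lower and red where higher. The myogenic factors and myocyte markers all lie below 0, at medians of -0.17 and -0.19. The macrophage markers all lie above 0, at a median of 1.06, as do the tested fibroblast, endothelial, Schwann cell and neuronal markers.

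Markers of the cells in culture moved with genotype, beside the members. Of 12 myocyte markers, 9 were called lower and 0 higher (8 and 0 in DESeq2, and 0 higher at an unadjusted p under 0.05), and their summed level was 38724 to 40058 CPM in control and 30894 to 33738 CPM in cKO. The titin gene Ttn had the largest fall in CPM of these markers, from a mean of 13807 in control to 10039 in cKO. Of 7 satellite cell markers tested, 5 were called lower, with sums of 4280 to 4356 CPM in control and 3698 to 4111 CPM in cKO. Macrophage markers, which the sort on CD45 should leave out, were called higher for 9 of 9, with sums of 134 to 138 CPM in control and 280 to 324 CPM in cKO. Fibroblast markers were called higher for 4 of 6 tested, with sums of 532 to 557 CPM in control and 779 to 862 CPM in cKO. Smooth muscle and pericyte markers were called higher for 4 and lower for 1 of 5 tested, at 3050 to 3100.2 CPM and 3280 to 3352 CPM. Nearly all of that sum was Acta2, at means of 2956 CPM in control and 3155 CPM in cKO (log2 fold change 0.09). The scarcer Cnn1 and Myh11 had log2 fold changes of 1.21 and 0.98, and Abcc9, the lower one, had -0.20. Endothelial markers were called higher for 4 of 7 by edgeR and for 2 by DESeq2, at 12.5 to 13.9 CPM and 15.7 to 20.3 CPM. Schwann cell markers were called higher for 1 of 6, at 28.9 to 31.0 CPM and 38.01 to 43.2 CPM. Of 3 neuronal markers tested, only the tubulin gene Tubb3 was called higher, at means of 48.5 and 77.04 CPM, and it made up nearly all of the summed level of that list, 47.8 to 50.7 CPM and 75.5 to 81.1 CPM. Snap25 and Syt1 had at most 4 counts in a sample, and the motor neuron gene Chat was at 0 in every sample. The part of these cell types in the lower levels of Musk, Chrna1, Rapsn and Chrnb1 was not tested. Nor was it tested for Chrnd, Chrng and Lrp4, which did not separate by genotype.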

How the data were processed

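The authors aligned single-end reads of 75 bp, from stranded libraries made from 400 ng of RNA after removal of ribosomal RNA, to mm10 with Bowtie2 2.3.4.2. They deposited raw counts per gene made with featureCounts 1.6.3. The strand setting and the handling of reads that match several places are not given in the sources used here. Their normalized counts and their DESeq2 2.11.40.6 comparison, which holds fold changes and p-values, were not used. Symbols and coordinates came from GENCODE M21, which matched all 55536 identifiers, and promoters from RefSeq.

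Counts were filtered with filterByExpr, scaled by TMM and tested across all 22404 genes with edgeR 4.0.16 (quasi-likelihood test, genotype as the only term, Benjamini-Hochberg adjustment, R 4.3.3). The biological coefficient of variation was 3.92%. The test was checked on simulated data in which all genes had the same biological coefficient of variation, a simpler case than these data. Ratios used exonic length and a two-sided exact permutation test. Alternatives were DESeq2 1.42.0, a likelihood-ratio test, other scaling, other filters, a replicate block, other lengths and leaving out each sample. Ratios of members other than Chrng to Chrnd, and the background among deeply counted genes, were added after seeing the data. All 10 members are named, and from each other list at most 4 genes called higher and 4 called lower, by size of change, with neighbours of the members and Hira; a few genes that this rule would name are not reported here. Exceptions named after their values were seen are Chrna6, Chrna7, Chrnb2, Chrnb3, Chrnb4, Gabpa, Rac1, Rhoa, Cdc42, Colq, Chat, Snap25, Syt1, Calcr, Chodl and Gm13778. The members and lists were chosen with earlier results of these data known.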

Additional observations from a re-analysis of the deposited data

How the results depend on the processing

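Under all 13 other settings, Musk, Chrna1 and Rapsn stayed lower in cKO with an adjusted p under 0.05, with log2 fold changes of -0.28 to -0.23, -0.20 to -0.16 and -0.24 to -0.17. Leaving out 1 sample at a time gave 3 to 5 members called lower and 0 to 1 called higher. Of the 72 other pathway genes, it gave 18 to 24 called lower and 5 to 8 called higher (with all samples, 24 were lower and 8 higher). With total counts only, 18 of these other genes were lower and 9 higher. Genes near no change turned sign. Chrnd went to 0.021 with total counts only and from -0.036 to 0.014 with a sample left out, and Chrng from -0.032 to 0.051 with a sample left out. Lrp4 went to -0.0044 with DESeq2, -0.0016 with RLE size factors, -0.0037 without a filter, and from -0.014 to 0.010 with a sample left out. With a sample left out, the log2 difference ranged from -0.43 to 0.10 for the ratio of Chrng to Chrne and from -0.0027 to 0.049 for that of Chrng to Chrnd. The cause was not tested. Depth limits Chrne, which had at most 12 counts in a sample.

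Labels share replicate numbers between genotypes, but the numbers did not pair the samples. Deviations of same-numbered samples had correlations of -0.0129, -0.0045 and -0.0145 across genes, and 0 of 6 samples correlated best with the sample of its own number. With the replicate number as a block, 4 members were called lower and 0 higher, 21 and 8 of the other pathway genes, and the log2 differences of the ratios of Chrng to Chrne and to Chrnd remained -0.14 and 0.02 (exact permutation p = 1 and 0.75).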
